A study of Homo sapiens with 15 samples.

Results

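The fibroblast growth factor (FGF) genes described here were 10 of the 19684 genes in the deposited tables: the ligands FGF2, FGF9 and FGF19, the receptors FGFR1, FGFR2, FGFR3 and FGFR4, and the feedback genes SPRY1, SPRY2 and SPRY4. They were chosen by name, for their place in the pathway, and all 10 symbols matched 1 row each. They were followed through 15 poly(A) RNA-seq libraries, 3 in each of 5 groups, all from the wild-type BC1-GFP line, a human induced pluripotent stem cell (hiPSC) line that carries a GFP reporter. The groups were undifferentiated hiPSCs grown in mTeSR1, a medium that contains basic FGF, the neural retina (NR) layers of retinal organoids (ROs) on day 70, called D70-ROs, and on day 150, called D150-ROs, and Müller glial cells expanded from the NR layers of D150-ROs (iMGCs), taken on day 5 of passage 1 (P1) and of passage 5 (P5). ROs of both stages and iMGCs were grown with 10% serum, and no FGF is listed among the components of their media. Between the 2 RO stages the B27 supplement of the RO medium was replaced by N2, which cannot be told apart from age. ROs were kept in suspension, whereas iMGCs, like hiPSCs, were grown on Matrigel-coated plates, and the iMGC medium differed from that of ROs. These differences cannot be told apart from the change of cells. All libraries come from 1 cell line, each RO library pools several organoids, and the sources give 3 independent experiments per group in the sample descriptions but 2 for hiPSCs and ROs in the description of the whole series, so that the p-values may in part measure technical spread.

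FGFs are secreted signalling proteins that bind receptor tyrosine kinases, the FGFRs, together with heparan sulphate. The active receptor recruits adaptors such as FRS2 and switches on the RAS-MAPK cascade, which turns on ETS transcription factors of the ETV group and also its own inhibitors, among them the Sprouty (SPRY) proteins and the phosphatase DUSP6. FGF2 is used to keep human pluripotent stem cells undifferentiated. In the developing eye FGFs promote neural retina over pigment epithelium, and Müller glia both make and respond to FGF2.

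Levels are given as FPKM, the authors' count of fragments scaled for transcript length and for the mapped reads of the library, and differences as log2 fold changes from edgeR's quasi-likelihood test on the counts. A gene was called changed at a Benjamini-Hochberg adjusted p under 0.05, over all genes tested, together with a change of 2-fold or more. Library totals lay between 11349600 expected counts in D70-RO replicate 2 and 20398755. The 2 scales do not move in step, because the FPKM of a library summed to between 387551 and 570482. From D150-ROs to P1 iMGCs the median of all genes moved by −0.59 on log2(FPKM + 1) and by −0.05 in edgeR, and from hiPSCs to D150-ROs by 0.27 and −0.02. FPKM levels set across groups are therefore a description, and the tests rest on the counts.

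The labelled cell types were checked against marker genes. The 5 pluripotency genes summed to between 3161 and 3344 FPKM in hiPSCs and to at most 8.96 FPKM in the other groups. The 5 photoreceptor genes summed to between 675 and 681 FPKM in D150-ROs and to at most 0.56 FPKM in iMGCs. In iMGCs the Müller markers were uneven: VIM lay at 2160 FPKM in P1 and 2858 FPKM in P5, GLUL at 13.4 and 14.6 FPKM and SOX9 at 5.21 and 3.59 FPKM, while RLBP1 was at 0 in all P1 libraries and at 0.03 FPKM in P5. The list of 8 also holds SLC1A3, CRYAB, APOE and AQP4. Of the 8, 5 were at 1 FPKM or more on average in P1 and 6 in P5, and 2 and 1 were at 0 in all libraries. The 8 mesenchymal genes summed to between 2298 and 2842 FPKM in iMGCs, most of it COL1A1, and to between 19.9 and 35.4 FPKM in ROs. In hiPSCs they summed to between 318.6 and 378.5 FPKM, with 5 of 8 at 1 FPKM or more. From day 70 to day 150 the 5 retinal progenitor genes went from between 866 and 1001 FPKM to between 378 and 421 FPKM, with 5 of 5 at 1 FPKM or more at both. The 5 pigment epithelium genes went from between 82.9 and 133 FPKM to between 5.59 and 6.13 FPKM, with 3 of 5 at 1 FPKM or more. In hiPSCs their sum was between 119.6 and 137.8 FPKM, with 1 of 5 at 1 FPKM or more. A high sum of this list is thus not particular to pigment epithelium. From day 70 to day 150 the 4 proliferation genes went from between 75.5 and 111 FPKM to between 27.6 and 39.3 FPKM. Of the 3 endothelial genes KDR alone reached 1 FPKM, and their sum was between 6.48 and 9.04 FPKM at day 70 and between 84.7 and 92.2 FPKM at day 150, where CDH5 was at 0. These marker levels differ between the groups together with the FGF genes, and their part in the changes below was not tested. In bulk RNA, fewer cells of a type and less RNA per cell cannot be told apart.

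From hiPSCs to D70-ROs all 10 genes were tested, and 2 rose and 7 fell, where 22.5% of the genes tested were called higher and 21.1% called lower. The median log2 fold change of the 10 genes was −1.53, beside 0.02 over all genes tested. FGF9 and FGF19 rose, the 4 receptors, FGF2, SPRY1 and SPRY4 fell, and SPRY2 did not reach a 2-fold change. From hiPSCs to D150-ROs 1 rose and 8 fell of 10 tested, where 29.8% of genes were called higher and 29.0% lower, with FGF9 as the gene that rose and SPRY2 as the gene not called. Between the RO stages 0 rose and 2 fell of 10 tested, where 16.6% of genes were called higher and 16.7% lower. Those that fell were FGF19 and SPRY4. Of the 10 genes, 5 had an unadjusted p under 0.05 between the stages, and DESeq2 called 2 and limma on log2(FPKM + 1) called 1.

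From D150-ROs to P1 iMGCs 9 genes were tested, and 1 rose and 4 fell, where 20.0% of genes were called higher and 24.1% lower. FGF2 rose, and FGF9, FGFR3, SPRY1 and SPRY2 fell. FGF19, which was at 0 in the iMGCs, was under the filter of at least 1 FPKM in 3 libraries. The series design names 2 companies for extraction, library preparation and sequencing and does not say which libraries each made. The methods of the paper name only Gene Denovo Biotechnology, for all samples. The sources thus differ, and a batch cannot be told apart from the groups in this or the other comparisons. From P1 to P5 iMGCs only FGF2, FGFR1, SPRY2 and SPRY4 passed the filter, and 0 of these 4 were called by edgeR, DESeq2 or limma, where 1.94% of genes were called higher and 0.977% lower. All 4 had an unadjusted p under 0.05 in edgeR, 2 of them an adjusted p under 0.05, and all 4 were lower in P5 by less than 2-fold.

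The split of calls in all genes depends on the scale. Between the RO stages 2131 genes were called higher and 2145 lower by edgeR, against 2250 and 1302 by limma on log2(FPKM + 1). From D150-ROs to P1 iMGCs 2581 were called higher and 3105 lower by edgeR, against 1329 and 4478 by limma. For the 10 FGF genes the split moved between the RO stages, where limma on log2(FPKM + 0.1) called 1 higher, FGFR4, and 1 lower, FGF19.

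**Figure D1:**
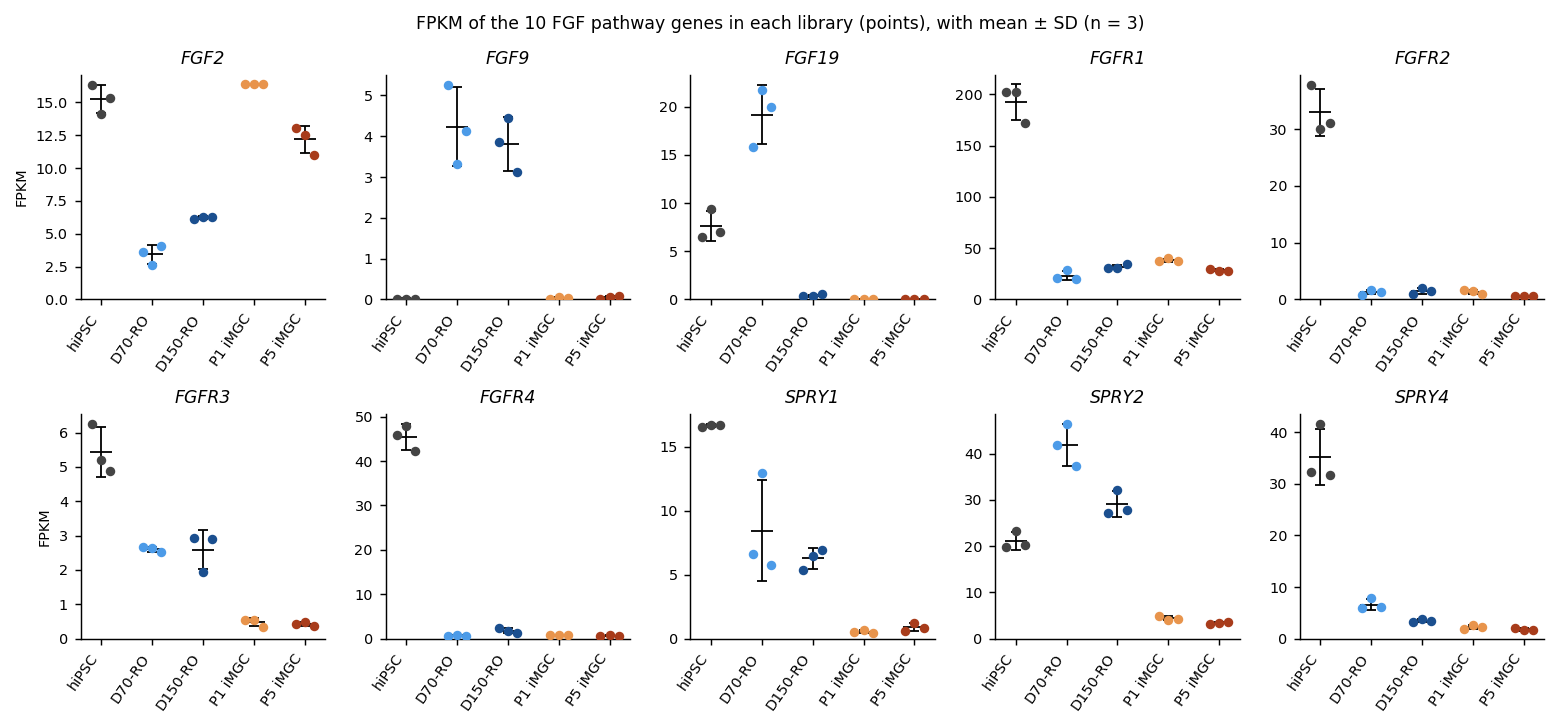
FPKM of each of the 10 genes in the 15 libraries, 1 panel per gene with its own axis from 0; points are libraries, and the bars are the mean and SD of 3 libraries. FGFR1, FGFR2 and FGFR4 stand high in hiPSCs only, FGF9 in both RO stages, FGF19 in D70-ROs, and FGF2 in hiPSCs and iMGCs.

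**Figure D2:**
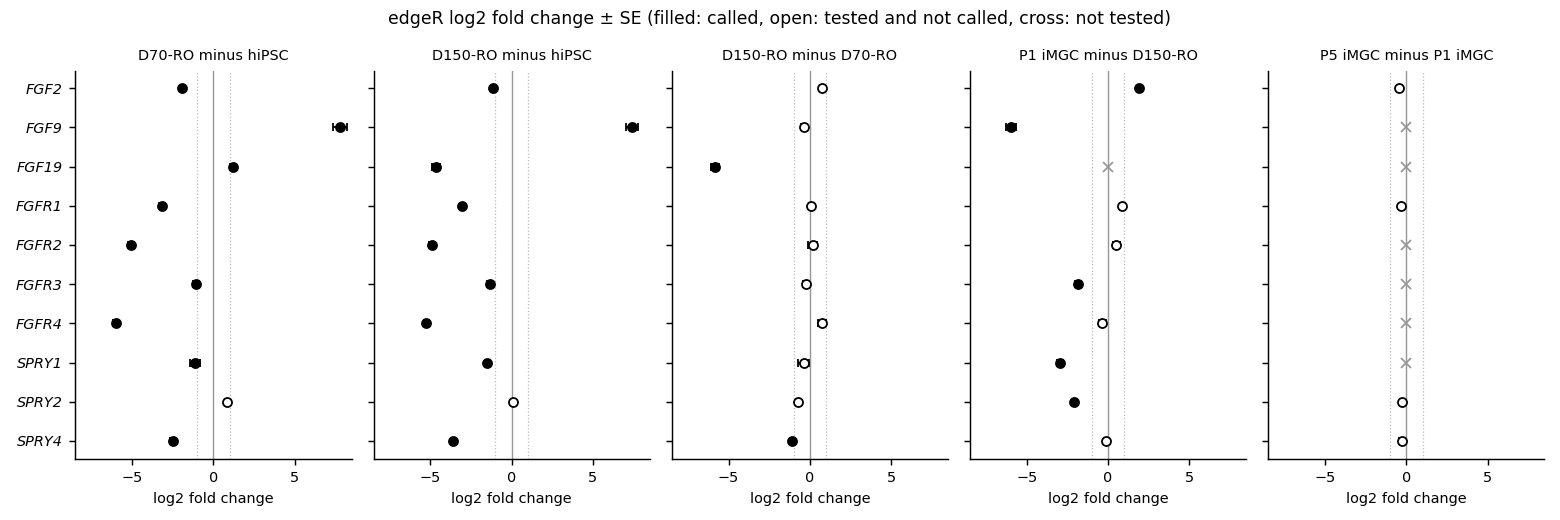
Log2 fold change (x axis) with its SE for each gene in the 5 comparisons, from edgeR on expected counts; filled points were called changed, open points were tested and not called, grey crosses mark genes under the filter, and dotted lines mark a 2-fold change. The 7 genes left of the dotted lines in D70-ROs against hiPSCs contrast with none in P5 against P1 iMGCs.

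FGF2, or basic FGF, lies at chr4:122826708-122898236 on the plus strand (GRCh38, GENCODE 29), and its RNA was high at both ends of the series. It stood at 16.3, 14.2 and 15.3 FPKM in the 3 hiPSC libraries, at 3.60, 2.65 and 4.07 FPKM in D70-ROs and at 6.14, 6.28 and 6.30 FPKM in D150-ROs. In the P1 iMGC libraries it stood at 16.4 FPKM each, and in P5 at 13.0, 12.5 and 11.0 FPKM. No neighbours in this order of 5 groups overlapped on FPKM, whereas hiPSCs and P5 iMGCs overlapped once each library was rescaled to the same sum. FGF2 was lower in D70-ROs than in hiPSCs by a log2 fold change of −1.92 (SE 0.17, edgeR adjusted p = 1.34e-06) and in D150-ROs by −1.17 (SE 0.11, edgeR adjusted p = 4.32e-07). The rise from D150-ROs to P1 iMGCs was 1.89 (SE 0.05, edgeR adjusted p = 1.48e-14). The differences of 0.74 (SE 0.14) between the RO stages and of −0.46 (SE 0.05) from P1 to P5 had an adjusted p under 0.05 and stayed under 2-fold.

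FGF2 shares 804 of its exonic bases (11.9%) with NUDT6, a gene on the opposite strand, and the sources do not say whether the counting used strand. NUDT6 itself lay between 2.85 and 3.86 FPKM on average in the 5 groups and was not called in any comparison, with log2 fold changes from −0.30 to 0.30.

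FGF9, a ligand that supports the neural fate of the optic vesicle, lies at chr13:21671383-21704498 and was a gene of the RO stages. The hiPSC libraries held 0.02, 0 and 0.02 FPKM, the D70-ROs 5.25, 3.32 and 4.13 FPKM, and the D150-ROs 3.87, 4.45 and 3.12 FPKM. The iMGC libraries held at most 0.08 FPKM. The ROs did not overlap with the other groups, and the 2 RO stages overlapped with each other. Counts were 4 over the hiPSC libraries, 911 over the D70-ROs, 776 over the D150-ROs and 8 over the P1 iMGCs. The ratio of D70-ROs to hiPSCs was 249, with a 95% exact counting interval from 6.60 to 9.84 on the log2 scale, and that of D150-ROs to hiPSCs was 186. FGF9 fell from D150-ROs to P1 iMGCs by 5.96 on the log2 scale (SE 0.32, edgeR adjusted p = 6.02e-11). The edgeR difference between the RO stages was −0.38 (SE 0.19, adjusted p = 0.0955).

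FGF19, which signals mainly through FGFR4 and is best known as a hormone of bile acid metabolism, lies at chr11:69698232-69704642. Its level was 6.48, 9.37 and 7.03 FPKM in hiPSCs and 15.8, 21.8 and 20.0 FPKM in D70-ROs. At day 150 it was 0.34, 0.30 and 0.52 FPKM, and no count was listed in any of the 6 iMGC libraries. The groups from hiPSCs to D150-ROs did not overlap. FGF19 rose from hiPSCs to D70-ROs by 1.19 (SE 0.19, edgeR adjusted p = 1.62e-04) and fell from D70-ROs to D150-ROs by 5.83 on the log2 scale (SE 0.23, edgeR adjusted p = 1.86e-07). The D150-ROs held 46 counts in all, and with the limit of 3 counts that 0 counts allow over a group, FGF19 was at least 10.2-fold lower in P1 iMGCs. KLB, the co-receptor that FGF19 uses with FGFR4, was named here after its values were seen, and it lay between 0.0067 and 0.047 FPKM on average in every group.

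The ligand in front thus differed between the groups. Of the summed FPKM of these 3 ligands, FGF2 held 66.7% ± 5.9 (SD, n = 3) in hiPSCs, FGF19 held 71.2% ± 7.2 in D70-ROs, and FGF2 held 59.9% ± 3.3 in D150-ROs with FGF9 at 36.4% ± 4.6. In P1 iMGCs FGF2 held 99.8% ± 0.2. Shares within a library do not depend on its scaling.

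**Figure D3:**
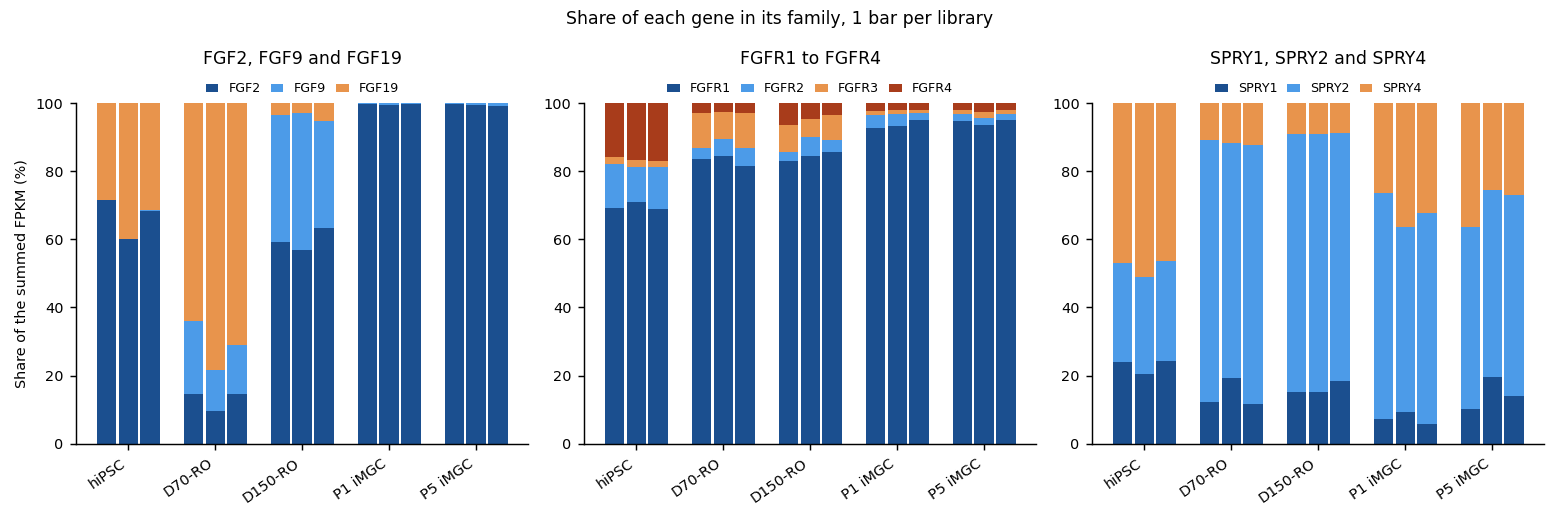
Share (%) of each gene in the summed FPKM of its family, 1 stacked bar per library, for the 3 ligands, the 4 receptors and the 3 Sprouty genes. FGF19 leads the ligands in D70-ROs and FGF2 makes up nearly all in iMGCs, FGFR1 holds the largest receptor share in every library, and SPRY4 leads the Sprouty genes in hiPSCs but SPRY2 in the other 4 groups on FPKM.

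The other 15 secreted FGF ligands were mostly at low levels, and those that stood out differed between the groups. FGF8, a ligand of early eye patterning, was at 12.2 FPKM in D70-ROs and 1.93 in hiPSCs and was called higher (log2 fold change 2.48, SE 0.25, edgeR adjusted p = 4.43e-06), and was the only ligand of this list that passed the filter there. Against hiPSCs, D150-ROs had 3 of the 15 tested and 2 higher, beside 29.8% of all genes. These were FGF7 (1.21 against 0.22 FPKM) and FGF17 (2.93 against 0.72 FPKM). Between the RO stages 2 of 3 tested rose, again FGF17 and FGF7, and FGF8 fell by 2.18 on the log2 scale. There 16.6% of all genes were called higher and 16.7% lower. Here and against hiPSCs, FGF17 and FGF7 met the filter only with the D150-RO libraries, where they were higher. In P1 iMGCs against D150-ROs 5 were tested, of which 2 rose and 3 fell, beside 20.0% and 24.1% of all genes. Each of the 5 met the filter only with the group where it was higher. The direction of these calls was thus set by the filter, and their counts are a description.

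The ligands that rose in P1 iMGCs were FGF5, from 0.03 to 9.43 FPKM (log2 fold change 8.66, SE 0.18), and FGF1 or acidic FGF, from 0.97 to 9.69 FPKM (3.72, SE 0.14). Of those that fell, FGF17 and FGF8 had 1 count each over the P1 libraries against 242 and 121 over the D150-ROs, with 95% exact counting intervals of the log2 ratio from −12.64 to −4.84 and from −11.64 to −3.82. All 18 secreted ligands together summed in hiPSCs to 28.1 FPKM ± 1.7 (SD, n = 3), with 41.4 ± 1.7 at day 70, 19.2 ± 1.7 at day 150, 35.9 ± 1.5 in P1 and 26.5 ± 1.3 in P5 iMGCs. From P1 to P5 iMGCs edgeR, DESeq2 and limma each called 0 of the 2 ligands tested, FGF1 and FGF5, and 1, FGF1, had an unadjusted p under 0.05 in edgeR (log2 fold change −0.85, SE 0.08).

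**Figure D4:**
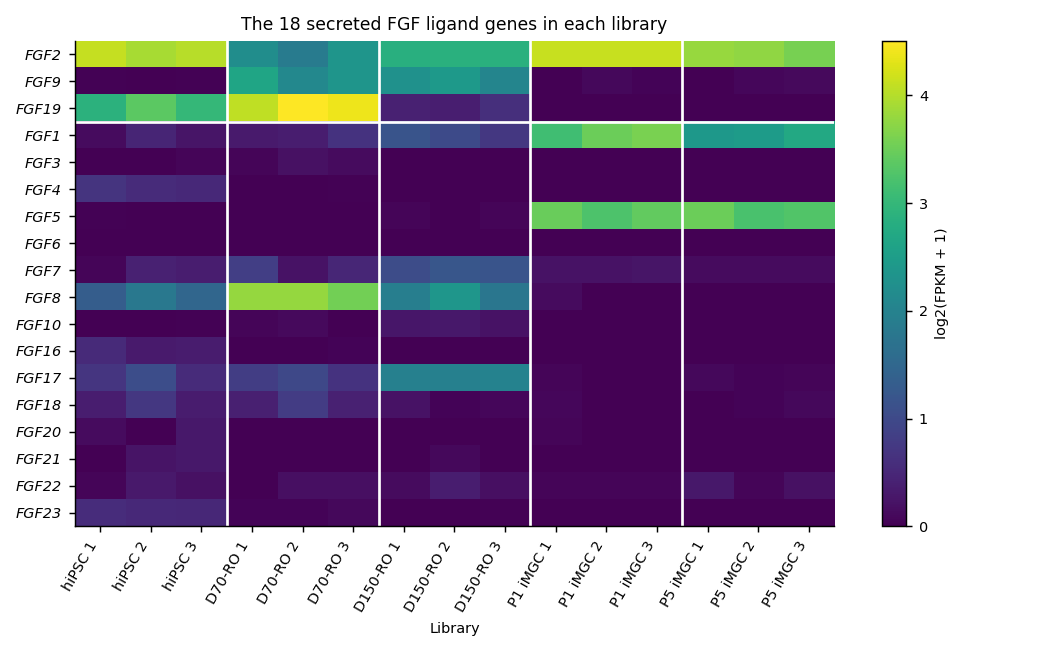
Heat map of the 18 secreted FGF ligand genes (rows) in the 15 libraries (columns), coloured by log2(FPKM + 1); white lines part the groups, and the upper 3 rows are FGF2, FGF9 and FGF19. FGF8 is brightest in D70-ROs, and FGF1 and FGF5 are bright in iMGCs only.

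The 4 intracellular FGF homologous factors, which resemble FGFs but bind sodium channels inside neurons, were counted apart. FGF14 rose from hiPSCs to D150-ROs, from 0.03 to 1.35 FPKM (log2 fold change 3.67, SE 0.41), while FGF11 and FGF13 fell, to 13.6 and 12.2 FPKM. From hiPSCs to D70-ROs 1 of 3 tested fell, FGF12, from 3.92 to 0.91 FPKM, beside 21.1% of all genes. Between the stages FGF12 and FGF14 rose, by 2.30 (SE 0.28) and 1.30 (SE 0.24), and FGF11 fell by 1.61 on the log2 scale. In P1 iMGCs 3 of the 4 were lower than in D150-ROs, beside 24.1% of all genes. All 3 met the filter only with the D150-RO libraries. Among them were FGF13 at 0.39 against 12.2 FPKM and FGF14 with 3 counts against 334 (95% exact counting interval of the log2 ratio from −8.49 to −4.65). In P5 against P1 iMGCs 1 was tested, and edgeR, DESeq2 and limma each called 0, with 0 at an unadjusted p under 0.05 in edgeR.

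FGFR1, at chr8:38400215-38468834, was the most abundant receptor in every library. It stood at 202, 203 and 173 FPKM in hiPSCs, at 21.3, 28.4 and 20.0 FPKM in D70-ROs and at 30.7, 30.9 and 34.3 FPKM in D150-ROs. The P1 libraries held 37.8, 40.0 and 37.2 FPKM and the P5 libraries 29.4, 27.8 and 27.9 FPKM. Each hiPSC library held several times the level of any other library, and the D150-RO and P5 libraries lay within a few FPKM of each other. FGFR1 fell from hiPSCs to D70-ROs by 3.15 on the log2 scale (SE 0.18, edgeR adjusted p = 4.17e-08) and the difference to D150-ROs was −3.08 (SE 0.10, edgeR adjusted p = 3.73e-11). It was higher in P1 iMGCs than in D150-ROs by 0.84 (SE 0.05, edgeR adjusted p = 1.68e-10), which stayed under 2-fold. The difference of 0.08 (SE 0.16) between the RO stages changed its sign with the scaling and with the library left out. FGFR1 shares 138 exonic bases with LETM2 on the opposite strand.

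FGFR2 and FGFR4 were receptors of the hiPSCs. FGFR2, at chr10:121478334-121598458, stood at 37.8, 30.0 and 31.1 FPKM in hiPSCs and at no more than 2.04 FPKM in any other library. FGFR4, at chr5:177086886-177098144, stood at 45.9, 47.9 and 42.2 FPKM in hiPSCs and at no more than 2.34 FPKM elsewhere. FGFR2 fell to D70-ROs by 5.08 on the log2 scale (SE 0.19, edgeR adjusted p = 2.69e-09) and FGFR4 by 6.02 (SE 0.17, edgeR adjusted p = 4.66e-10). Their differences from hiPSCs to D150-ROs were −4.91 (SE 0.17) and −5.26 (SE 0.16). FGFR4 held 0.70, 0.88 and 0.70 FPKM in D70-ROs and 2.34, 1.66 and 1.36 FPKM in D150-ROs, groups that did not overlap, with a log2 fold change of 0.75 (SE 0.26, edgeR adjusted p = 0.0261) under 2-fold. In P1 iMGCs neither was called against D150-ROs, at 0.51 (SE 0.22) for FGFR2, which was −0.12 by limma on log2(FPKM + 1), and −0.36 (SE 0.23) for FGFR4.

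FGFR3, at chr4:1793293-1808872, stepped down in 2 stages. Its level was 6.25, 5.20 and 4.87 FPKM in hiPSCs, 2.66, 2.63 and 2.51 FPKM in D70-ROs and 2.94, 1.95 and 2.89 FPKM in D150-ROs. In P1 iMGCs it was 0.54, 0.54 and 0.34 FPKM. The RO stages overlapped, and both lay between the hiPSCs and the iMGCs. The fall from hiPSCs to D70-ROs was 1.07 on the log2 scale (SE 0.18, edgeR adjusted p = 1.98e-04), close to the 2-fold limit, and without hiPSC replicate 1 or D70-RO replicate 3 the value was −0.93 or −0.97. From D150-ROs to P1 iMGCs FGFR3 fell by 1.86 (SE 0.20, edgeR adjusted p = 3.97e-07).

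The 4 receptors together summed in hiPSCs to 276 FPKM ± 22.4 (SD, n = 3), with 27.8 ± 4.9 at day 70, 37.9 ± 1.9 at day 150, 40.9 ± 1.8 in P1 and 30.0 ± 0.9 in P5 iMGCs. FGFR1 made up 69.7% ± 1.1 of it in hiPSCs, 83.2% ± 1.6 in D70-ROs, 84.4% ± 1.4 in D150-ROs, 93.7% ± 1.2 in P1 and 94.5% ± 0.8 in P5. The ranges of this share in hiPSCs, ROs and iMGCs did not overlap, and those of the 2 RO stages did. FGFR4 held 16.4% ± 0.6 in hiPSCs and at most 6.34% in any other library, and FGFR3 was the next after FGFR1 in both RO stages, at 9.51% ± 1.4 and 6.84% ± 1.4.

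In P5 iMGCs FGFR2, FGFR3 and FGFR4 were under the filter, at 0.59, 0.43 and 0.62 FPKM on average. Without the filter FGFR2 was lower in P5 than in P1 by 0.84 on the log2 scale (SE 0.21, edgeR adjusted p = 6e-04), under 2-fold, with counts of 116 against 217.

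The list of 33 genes covers co-receptors, FGF-binding proteins, heparan sulphate proteins and the enzymes that make or change heparan sulphate. From hiPSCs to D70-ROs 5 of the 25 tested rose and 8 fell, beside 22.5% and 21.1% of all genes. Those that fell included the perlecan gene HSPG2, from 18.5 to 0.99 FPKM, and the glypican GPC3, from 41.5 to 4.83 FPKM. FLRT2 and FLRT3, which bind FGFR1, were among those that rose. At day 150 against hiPSCs 6 rose and 6 fell, beside 29.8% and 29.0% of all genes. GPC4 fell from 81.4 to 1.95 FPKM. SULF1, which removes sulphate from heparan sulphate, was at 64.3 FPKM in D150-ROs against 4.86 in hiPSCs and 10.1 in D70-ROs. Between the stages 2 of 25 rose, SULF1 and ANOS1, and 4 fell, among them GPC3 and GPC4, beside 16.6% and 16.7% of all genes.

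In P1 iMGCs against D150-ROs 12 of the 24 tested rose and 6 fell, beside 20.0% and 24.1% of all genes, with a median log2 fold change of 0.99 beside −0.05 over all genes. HSPG2 rose from 1.15 to 32.8 FPKM (5.40, SE 0.07) and SDC1, a syndecan, from 2.83 to 29.7 FPKM (4.43, SE 0.08), while SULF1 fell to 0.66 FPKM (−6.71, SE 0.08) and FLRT1 to 0.06 FPKM. Several of these genes are also matrix genes, and the mesenchymal markers given above were higher in the same libraries. With passaging from P1 to P5 2 of 20 rose and 1 fell, beside 1.94% and 0.977% of all genes. SULF1 (2.43, SE 0.18) and FLRT2 (1.37, SE 0.04) rose, and HS6ST2, a heparan sulphate sulphotransferase, fell (−2.09, SE 0.12). SULF1 and HS6ST2 met the filter only with the group where each was higher, so that these counts are a description.

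The 20 adaptors and RAS-MAPK genes carry the signal inside the cell. All 20 were tested in the 4 comparisons up to P1. In D70-ROs against hiPSCs 2 rose and 2 fell, and in D150-ROs against hiPSCs 5 and 5, where 22.5% and 29.8% of all genes were called higher and 21.1% and 29.0% lower. Between the RO stages 3 rose and 1 fell, beside 16.6% and 16.7% of all genes, and in P1 iMGCs against D150-ROs 2 and 2, beside 20.0% and 24.1%. SHC1, an adaptor, fell from 137 FPKM in hiPSCs to 51.2 in D70-ROs and 44.7 in D150-ROs and rose to 169 FPKM in P1 iMGCs (3.00, SE 0.05). SOS2, an exchange factor for RAS, rose from 2.35 FPKM in hiPSCs to 10.7 in D70-ROs and 24.7 in D150-ROs. BRAF rose between the RO stages from 5.03 to 14.2 FPKM, and GAB1 from 6.003 to 15.15 FPKM (1.052, SE 0.094). FRS2, the docking protein of the FGFRs, was higher in D70-ROs than in hiPSCs by 1.15 (SE 0.16), whereas the related FRS3 was lower in P1 iMGCs than in D150-ROs (−2.04, SE 0.19), as was GAB1 (−1.14, SE 0.08). MAP2K1 was lower than in hiPSCs in D70-ROs (−1.28, SE 0.14) and in D150-ROs (−1.605, SE 0.087), and MAP2K2 was lower in D150-ROs (−1.83, SE 0.09). From P1 to P5 iMGCs edgeR, DESeq2 and limma each called 0 of 19 tested, and 7 had an unadjusted p under 0.05 in edgeR.

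The Sprouty genes encode inhibitors that act between the receptor and the MAPK cascade, and the 3 followed different courses. The promoter sequences of SPRY1 and SPRY2 are shown because these genes had their highest levels in different groups, hiPSCs and D70-ROs. They are the 250 bases before the transcription start nearest to the 5′ end of the GENCODE gene, taken from RefSeq (GRCh38.p14) and written 5′ to 3′ on the strand of the gene, at chr4:123396545-123396794 on the plus strand for SPRY1 and chr13:80341127-80341376 on the minus strand for SPRY2. Capitals mark the letters CCGGAA, the core that ETS factors bind with its flanking bases, searched on both strands.
SPRY1: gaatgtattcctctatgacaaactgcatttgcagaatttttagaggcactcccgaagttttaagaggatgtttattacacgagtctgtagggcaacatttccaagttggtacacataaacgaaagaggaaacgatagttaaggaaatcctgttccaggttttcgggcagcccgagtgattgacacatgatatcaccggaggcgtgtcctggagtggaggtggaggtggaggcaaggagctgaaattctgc
SPRY2: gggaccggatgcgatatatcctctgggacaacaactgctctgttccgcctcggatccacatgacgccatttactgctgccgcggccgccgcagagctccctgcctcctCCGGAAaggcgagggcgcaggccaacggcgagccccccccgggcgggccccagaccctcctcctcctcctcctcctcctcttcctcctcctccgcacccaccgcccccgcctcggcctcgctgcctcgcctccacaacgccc
CCGGAA stands once in the SPRY2 window, 142 bases before the start, and not in the SPRY1 window, and 14.5% of the 35116 promoter windows of that length in the table hold it. The SPRY2 window is 70.4% G and C with 23 CG dinucleotides, and the SPRY1 window 45.6% with 8, beside a median of 11 over all windows. Of the 10 genes 7 matched an entry of the table, and the windows of FGF2, FGFR2, FGFR3, FGFR4 and SPRY4 hold no CCGGAA. FGF9, FGF19 and FGFR1 did not match. A match of letters is a description and not a binding site.

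SPRY2, at chr13:80335976-80340951, stood at 19.9, 23.3 and 20.2 FPKM in hiPSCs, at 41.8, 46.4 and 37.4 FPKM in D70-ROs and at 27.1, 32.2 and 27.7 FPKM in D150-ROs. In P1 iMGCs it was 4.82, 3.99 and 4.35 FPKM and in P5 3.17, 3.45 and 3.58 FPKM. No 2 groups overlapped on FPKM, whereas the 2 RO stages overlapped once each library was rescaled to the same sum. Between these stages SPRY2 changed by −0.74 (SE 0.12, edgeR adjusted p = 0.000454), under 2-fold. The difference from hiPSCs to D70-ROs was 0.85 (SE 0.14, edgeR adjusted p = 1.66e-04), under 2-fold, and that to D150-ROs was 0.11 (SE 0.11, edgeR adjusted p = 0.366) on the count scale. SPRY2 fell from D150-ROs to P1 iMGCs by 2.07 on the log2 scale (SE 0.09, edgeR adjusted p = 7.16e-12).

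SPRY1, at chr4:123396795-123403760, was even in hiPSCs, at 16.5, 16.7 and 16.7 FPKM, and uneven in D70-ROs, at 6.64, 13.0 and 5.77 FPKM. The D150-ROs held 5.40, 6.49 and 6.97 FPKM, the P1 iMGCs 0.53, 0.68 and 0.41 FPKM and the P5 iMGCs 0.61, 1.24 and 0.84 FPKM. D70-RO replicate 2, the library of lowest depth, stood apart from the other two. The D70-RO libraries also differed in marker sums. The 3 astrocyte and optic stalk genes (GFAP, S100B and PAX2) summed to between 7.14 and 30.07 FPKM, and the 8 Müller genes to between 1463 and 2337 FPKM. The part of depth or of cell types in this spread was not tested. SPRY1 fell from hiPSCs to D70-ROs by 1.14 on the log2 scale (SE 0.29, edgeR adjusted p = 0.0041), a difference of −0.86 without D70-RO replicate 3 and of −1.62 without replicate 2. It fell from D150-ROs to P1 iMGCs by 2.94 (SE 0.18, edgeR adjusted p = 3.97e-10).

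SPRY4, at chr5:142310427-142326455, was highest in hiPSCs, at 32.3, 41.5 and 31.7 FPKM. It stood at 5.86, 7.78 and 6.05 FPKM in D70-ROs, 3.26, 3.79 and 3.36 FPKM in D150-ROs, 1.90, 2.68 and 2.27 FPKM in P1 iMGCs and 2.16, 1.61 and 1.62 FPKM in P5 iMGCs. Neighbours in this order overlapped only between P1 and P5. SPRY4 fell from hiPSCs to D70-ROs by 2.50 on the log2 scale (SE 0.17, edgeR adjusted p = 1.43e-07) and again to D150-ROs by 1.09 (SE 0.15, edgeR adjusted p = 2.06e-04). The latter was −0.95 without D70-RO replicate 2 and −0.75 by limma on log2(FPKM + 1), under 2-fold in both. From D150-ROs to P1 iMGCs the difference was −0.14 (SE 0.13, edgeR adjusted p = 0.315), although the FPKM of the 2 groups did not overlap.

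The 3 Sprouty genes summed in hiPSCs to 73.0 FPKM ± 7.4 (SD, n = 3), with 56.9 ± 9.3 at day 70, 38.8 ± 3.4 at day 150, 7.21 ± 0.16 in P1 and 6.09 ± 0.19 in P5 iMGCs. SPRY4 held 48.1% ± 2.5 of the sum in hiPSCs and 11.6% ± 0.7 in D70-ROs, where SPRY2 held 74.0% ± 4.3. In P1 iMGCs SPRY2 held 60.9% ± 6.2 and SPRY4 31.7% ± 5.2. By expected counts, which are not divided by length, SPRY2 held 49.2% ± 4.0 and SPRY4 44.8% ± 4.4 there, and SPRY4 was ahead of SPRY2 in P1 replicates 2 and 3 and in P5 replicate 1.

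Of the other 12 feedback inhibitors 11 were tested up to P1. From hiPSCs to D70-ROs 1 rose and 4 fell, beside 22.5% and 21.1% of all genes, and to D150-ROs again 1 rose and 4 fell, beside 29.8% and 29.0%. DUSP6, the ERK phosphatase, stood in hiPSCs at 93.6 FPKM ± 9.6 (SD, n = 3), 9.86 ± 1.3 at day 70, 5.97 ± 1.1 in D150-ROs, 2.08 ± 0.36 in P1 and 1.69 ± 0.28 in P5 iMGCs. It fell from hiPSCs to D70-ROs by 3.43 (SE 0.14, edgeR adjusted p = 4.47e-09) on the log2 scale and was not called between the RO stages, in P1 iMGCs against D150-ROs or from P1 to P5. LRIG1, an inhibitor of receptor tyrosine kinases, fell by 2.78 (SE 0.14) to D70-ROs, and DUSP4 rose by 1.08 (SE 0.13).

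Between the RO stages 1 rose and 1 fell, beside 16.6% and 16.7% of all genes. DUSP5 rose (1.43, SE 0.10), and IL17RD or SEF, a membrane inhibitor of FGF signalling, fell from 14.3 to 4.70 FPKM (−2.05, SE 0.10). In P1 iMGCs SPRED1 rose by 1.10 (SE 0.07) and LRIG1 fell by 1.03 (SE 0.08) on the log2 scale against D150-ROs. With passaging 10 were tested, and DUSP4 fell from 2.30 to 0.80 FPKM (−1.43, SE 0.13). It was the 1 gene of the 10 that edgeR called, beside 0.977% of all genes called lower. DUSP4 averaged under 1 FPKM in P5 and so passed the filter through P1, where it was higher. DESeq2 also called 1, and limma on log2(FPKM + 1) called 0. RASA1, a RAS inactivator, was higher in D150-ROs than in hiPSCs by 1.58 (SE 0.14).

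Of the 13 transcriptional targets of the cascade, 12 were tested in D70-ROs against hiPSCs, and 1 rose and 6 fell, beside 22.5% and 21.1% of all genes. At day 150 against hiPSCs 2 of 13 rose and 5 fell, beside 29.8% and 29.0%. ETV4 fell from 78.6 to 2.97 FPKM in D70-ROs (−4.87, SE 0.17) and stood at 2.60 in D150-ROs, 0.99 in P1 and 0.49 FPKM in P5 iMGCs. Of the other ETV genes of the list, ETV1 also fell in D70-ROs (−1.71, SE 0.14). ETV5 did not (−0.115, SE 0.133), and ETV5, SHISA2 and PHLDA1 were not called in any comparison. FOSL1 fell from 6.55 to 0.30 FPKM (−4.82, SE 0.29) and CCND1 rose from 38.2 to 103 FPKM (1.28, SE 0.12) in D70-ROs. At day 150 FOS was lower than in hiPSCs (−3.19, SE 0.14), and EGR2 (1.85, SE 0.29) and JUNB (1.69, SE 0.17) were higher.

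Between the RO stages FOSL1 (5.10, SE 0.27) and EGR2 (3.80, SE 0.53) rose and CCND1 fell (−2.11, SE 0.10). In P1 iMGCs against D150-ROs 6 of 13 tested rose and 1 fell, beside 20.0% and 24.1% of all genes. IER3 rose from 4.46 to 155 FPKM (5.75, SE 0.07) and MYC from 6.77 to 44.2 FPKM (3.52, SE 0.07), and FOS fell from 2.61 to 0.70 FPKM. ETV4 (−0.71, SE 0.19) and DUSP6 (−0.56, SE 0.16) were not called. From P1 to P5 iMGCs edgeR, DESeq2 and limma each called 0 of 10 targets tested, and 6 had an unadjusted p under 0.05 in edgeR.

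**Figure D5:**
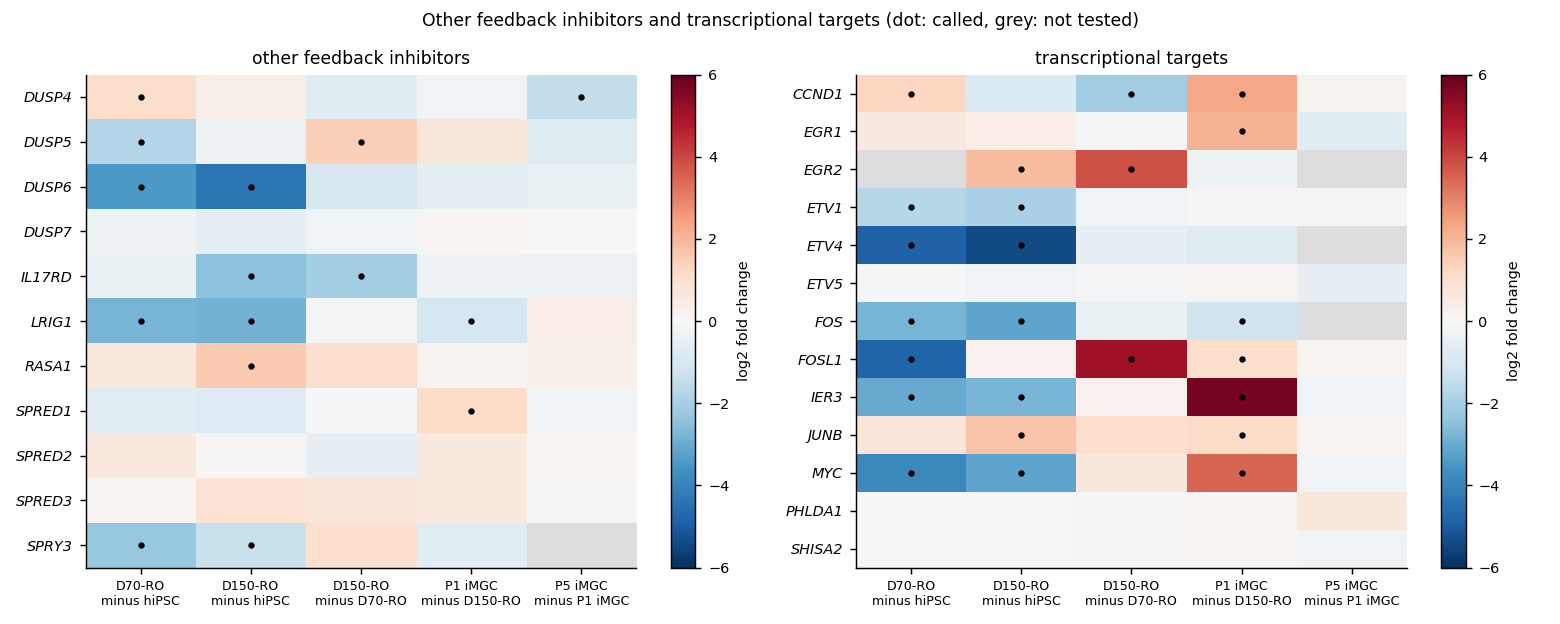
Log2 fold change (colour) from edgeR of the other feedback inhibitors (left) and transcriptional targets (right) in the 5 comparisons; rows are genes, dots mark called genes and grey marks genes under the filter. DUSP6 and ETV4 are blue in both RO stages against hiPSCs, and MYC and IER3 turn from blue to red in P1 iMGCs against D150-ROs.

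Across the 15 libraries the 10 genes fell into few patterns on log2(FPKM + 1). FGFR1, FGFR2 and FGFR4 followed each other with Pearson's r from 0.97 to 0.99, and SPRY4 followed FGFR2 with r = 0.94. FGFR3 and SPRY1 followed each other with r = 0.97, while FGF2 and FGF9 ran opposite with r = −0.93. These points are 5 groups of 3 libraries each, which share their scaling within a group, so that r mostly reflects the order of the groups.

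Among the 13915 genes with at least 1 FPKM in 3 libraries, the genes most like FGF2 were ARHGEF10, HMGA2 and KCNG1 (r = 0.982, 0.980 and 0.975). Those most like FGF9 were SCRT1, STMN4 and NTRK2 (r = 0.997, 0.994 and 0.993), each near 0 in hiPSCs and iMGCs. FGF19 was closest to APH1A, FAU and RPS15, FGFR1 to SPINT1, VARS and ALPL, FGFR2 to TTLL12, GPR3 and SOX21, FGFR3 to FANCE, LRRC45 and SLC1A6, and FGFR4 to ADGRG2, HPN and KCNN2. SPRY1 was closest to OBSL1, ACOT8 and PREB, SPRY2 to NAT8L, STRA6 and SMARCB1, and SPRY4 to HMGA1, SAE1 and DAZAP1. Over the 5 group means 0 to 2 of the 3 genes nearest to each member were the same.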

How the data were processed

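Poly(A) RNA of 15 libraries was sequenced. The tools that the authors name are HISAT2 for mapping, StringTie for assembly and RSEM for gene levels, with versions, genome build and annotation not given in the sources used here. Per the labels, a correction between data batches was used for joint analyses, without saying for which values. The deposited tables hold an expected count (estimated reads, not normalized) and FPKM for 19684 genes per library. The authors' own fold changes and p-values were not used. A further table, whose 6 iMGC columns of counts and FPKM give no passage, was not used either. Between 8.22% and 10.1% of the expected counts were not whole and were rounded. All identifiers are in GENCODE 29, which was used for positions and overlaps.

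Groups were compared 2 at a time in R 4.3.3 with edgeR 4.0.16 (quasi-likelihood test, TMM factors, two-sided) over genes with at least 1 FPKM in at least 3 of the libraries compared, without covariates. A gene under 1 FPKM in all libraries of 1 group, such as FGF9 in hiPSCs, passes only through the group where it is higher. For such genes the direction of a change is set by the filter. DESeq2 1.42.0, limma 3.58.1 on log2(FPKM + 1) and log2(FPKM + 0.1), no filter, upper-quartile factors, all 15 libraries in 1 fit, a replicate block and leaving out each library were alternatives. Equally numbered replicates did not pair, since their deviations from the group means correlated between −0.059 and 0.347. No pair of libraries agreed within sampling noise.

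The 10 genes, the 6 lists of pathway genes and the markers were chosen with earlier results of these data known. Named are all 10 genes, the 3 genes most correlated with each of the 10, and genes that overlap them. List genes were drawn, in each list and comparison, from the 2 called genes that rose most and the 2 that fell most. Only genes whose FPKM did not overlap between groups were eligible, and not all of those drawn are given. Other genes named were picked after their values were seen. These were KLB, MAP2K1 in D150-ROs, FGF1 and FGF5 from P1 to P5, DUSP6 and ETV4 in iMGCs, and ETV1, ETV5, SHISA2 and PHLDA1. Gene counts of 0 carry an upper limit of 3 counts over a group. Intervals and limits cover counting error only.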

Additional observations from a re-analysis of the deposited data

How the results depend on the processing

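Of 559 fold changes of the 10 genes under another setting, 539 kept their direction and their side of the threshold, 10 lost the call, 2 gained it (FGFR4 by limma on log2(FPKM + 0.1), at 1.11 between the RO stages and −1.03 in P1 iMGCs against D150-ROs) and 8 changed sign. The last were differences near 0. FGFR1 between the RO stages was −0.028 with upper-quartile factors, −0.011 without D70-RO replicate 1 and −0.048 without D70-RO replicate 3, in a range of −0.048 to 0.29 with a library left out. FGFR2 there was −0.049 without D70-RO replicate 1 and −0.111 without D150-RO replicate 2, in a range up to 0.302, and SPRY1 was 0.082 without D70-RO replicate 2, in a range from −0.672. FGFR2 in P1 iMGCs against D150-ROs was −0.12 and −0.189 by limma with a pseudocount of 1 and 0.1. The cause was not tested. The 10 lost calls were those of FGFR3 and SPRY1 in D70-ROs against hiPSCs and SPRY4 between the RO stages, each near 2-fold, and FGFR3 in D150-ROs against hiPSCs. The last was −1.34 in edgeR and lost its call only by limma on log2(FPKM + 1).

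The number of the 10 genes called between the RO stages was 1 by limma on log2(FPKM + 1), and 1 to 2 when a library was left out, with 1 without D70-RO replicate 2. All genes called from P1 to P5 iMGCs numbered 694 with no filter, which tests more genes, and 152 by limma on log2(FPKM + 1), against 332. From expected counts, which are not divided by length, FGFR1 held 75.4%, 85.3% and 86.1% of the receptors in hiPSCs, D70-ROs and D150-ROs, and SPRY2 held 21.0%, 68.0%, 68.6%, 49.2% and 46.5% of the Sprouty genes in the 5 groups in order, against 44.8% and 42.0% for SPRY4 in P1 and P5 iMGCs. With FPKM rescaled to the same sum, an alternative chosen after seeing the data, 2 places in the order of the groups changed for FGF9, FGFR3, FGFR4 and SPRY1 each.

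With the replicate block, whose numbers do not pair the libraries, 9, 9, 2, 5 and 0 of the 10 genes were called in the 5 comparisons in order, as without it, and 5662, 7845, 4317, 5691 and 333 of all genes. In P5 against P1, 5 of 6 libraries correlated best with their own number, and 2 or 3 of 6 in the other comparisons. Upper-quartile factors moved the median of all genes to 0.12 in D70-ROs against hiPSCs, −0.11 between the RO stages and −0.16 in P1 iMGCs against D150-ROs. The filter of 1 FPKM left FGF9, FGF19, FGFR2, FGFR3, FGFR4 and SPRY1 untested from P1 to P5. Depth limits FGF9 in hiPSCs and iMGCs and FGF19 in iMGCs. Without it SPRY1 was at 0.77 (edgeR adjusted p = 0.0605).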
